A study of Mus musculus with 9 samples.

Results

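Transcripts of regulatory T cells (Tregs) labelled TSLPR-negative were compared with those of TSLPR WT Tregs, both from mice labelled Mi2. The comparison took in 11803 of the 24016 gene symbols in the Treg table. Per symbol 1 transcript was used, that of the highest mean over the 5 Treg libraries, and it was kept where this mean was at least 10 normalized reads and the gene lay off chromosomes X and Y. A further 11111 symbols off X and Y had a lower mean, and 403 symbols with a sufficient mean lay on X or Y. A normalized read is 1 read multiplied by 1 factor per library, so that every library has the same total.

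The comparison used 3 of the 9 libraries of the series: 1 of TSLPR-negative Tregs and 2 of TSLPR WT Tregs, with 2 libraries of Ctl Tregs beside them. All Tregs were cell-sorted from lymph nodes that drain the skin, and the table's headers call them skin Tregs. The genotypes are given as TSLPR-negative, TSLPR WT, Mi2 and Ctl, and the headers write Mi2KO for the TSLPR WT libraries and WT for Ctl. For the TSLPR-negative library the header reads TMDKO, which the labels do not explain; it was matched as the only Treg column and the only Treg sample without a replicate number. No allele, deleting promoter, strain, age, sex or number of animals is given, nor how cells without TSLPR were obtained. No label says that libraries of a group came from different mice, so p-values measure the spread between these libraries. For the TSLPR WT pair that spread may be technical, and the Ctl pair is taken up below. The lone library has no replicate check of its own.

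TSLPR, encoded by Crlf2, is the receptor chain that binds thymic stromal lymphopoietin (TSLP), a cytokine of epithelial cells such as keratinocytes. It pairs with the interleukin 7 receptor alpha chain (Il7r) and signals through the kinases JAK1 and JAK2 to the transcription factor STAT5. In Tregs STAT5 is also driven by interleukin 2, and it supports Foxp3 expression and the survival of the cells. The comparison addresses which Treg transcripts differ when the TSLP receptor is missing in Mi2 mice.

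Depth was 29314512 and 25973974 reads in the TSLPR WT libraries and 30629057 in the TSLPR-negative library, against 21849381 and 32238992 in Ctl. Foxp3, the transcription factor that defines Tregs, was at 13778 and 14517 normalized reads in TSLPR WT, 13460 in TSLPR-negative and 11159 and 15371 in Ctl, so the cell type label held in all 5 libraries. RNA from the sex chromosomes differed between the groups. Xist, the RNA of the inactive X chromosome in female cells, was at 11903 normalized reads in the TSLPR-negative library and at 19.4 and 6.97 in TSLPR WT. The Y-linked genes Ddx3y and Eif2s3y were at 0.84 and 0 in the TSLPR-negative library, while TSLPR WT had 2378 and 1688 for Ddx3y and 1713 and 1363 for Eif2s3y. Ctl replicate 1 had Xist at 25266 and Ddx3y at 7.10, and Ctl replicate 2 had both, at 8678 and 736. The sex of the cells and their TSLPR status therefore cannot be told apart in any difference given below. Since the 2 Ctl libraries differed in these RNAs, they did not hold the same cells. The pooled spread behind the p-values includes that difference.

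Crlf2 fell. It was at 816 and 715 normalized reads in the TSLPR WT libraries, 51.5 in the TSLPR-negative library and 395 and 742 in Ctl. The TSLPR-negative library was the lowest of the 5, far below the range of the others. The log2 difference of log2(normalized reads + 1) was -3.86 (SE 0.367, limma adjusted p = 1.4e-04). The ratio of reads relative to depth, with the TSLPR WT pair pooled, was 0.0670, with a 95% exact counting interval of 0.0510 to 0.0865. The 61 reads that remained were not 0. The transcript counted, NM_001164735, runs over chr5:109983728-109988012 on the minus strand of mm9, and reads were summed over its exons, so the value does not show which exons they came from. In GRCm38.p6 the promoter window of RefSeq, from 250 bases before to 50 after the start, lies at chr5:109558944-109559243 (minus strand). It is shown since the gene is the one the label names; it holds neither of the motifs searched below.
Crlf2: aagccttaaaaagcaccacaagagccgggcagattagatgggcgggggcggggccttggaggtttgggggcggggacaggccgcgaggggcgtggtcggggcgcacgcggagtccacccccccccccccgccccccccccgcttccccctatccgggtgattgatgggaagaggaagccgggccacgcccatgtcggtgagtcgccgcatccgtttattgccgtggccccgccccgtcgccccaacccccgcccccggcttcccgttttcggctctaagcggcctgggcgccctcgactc

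Beside Crlf2, 107 genes passed the test. In all, limma called 108 of the 11803 genes at an adjusted p under 0.05 (0.915%), of which 87 were higher (0.737%) and 21 lower (0.178%) in TSLPR-negative Tregs. This fit of all 5 Treg libraries assumes that the lone library varies like the other groups. Called increases ran from 1.15 to 3.86 on the log2 scale, with a median of 1.77, and called decreases from -3.86 to -1.23, with a median of -2.10. Over all tested genes the median difference was 0.03. At an unadjusted p under 0.05, 837 genes were higher and 551 lower. By a rule without a test, 557 genes (4.72%) stood apart from the TSLPR WT pair: 323 genes (2.74%) lay at least 2-fold above the higher TSLPR WT library and 234 (1.98%) at least 2-fold below the lower one. The 2 TSLPR WT libraries themselves lay at least 2-fold apart for 710 genes (6.02%).

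The count of calls depended on the fit. With edgeR on recovered reads it was 114, of which 105 were among the 108, and with DESeq2 it was 231. With limma without the intensity trend only Hey1 passed, and Crlf2 then had an adjusted p of 0.104. With no filter on low values limma called 0 genes (1673 at an unadjusted p under 0.05), with an adjusted p of 0.452 for Crlf2. Without TSLPR WT replicate 2 the count was 434, without replicate 1 it was 147, and without Ctl replicate 1 or 2 it was 216 or 217.

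**Figure D1:**
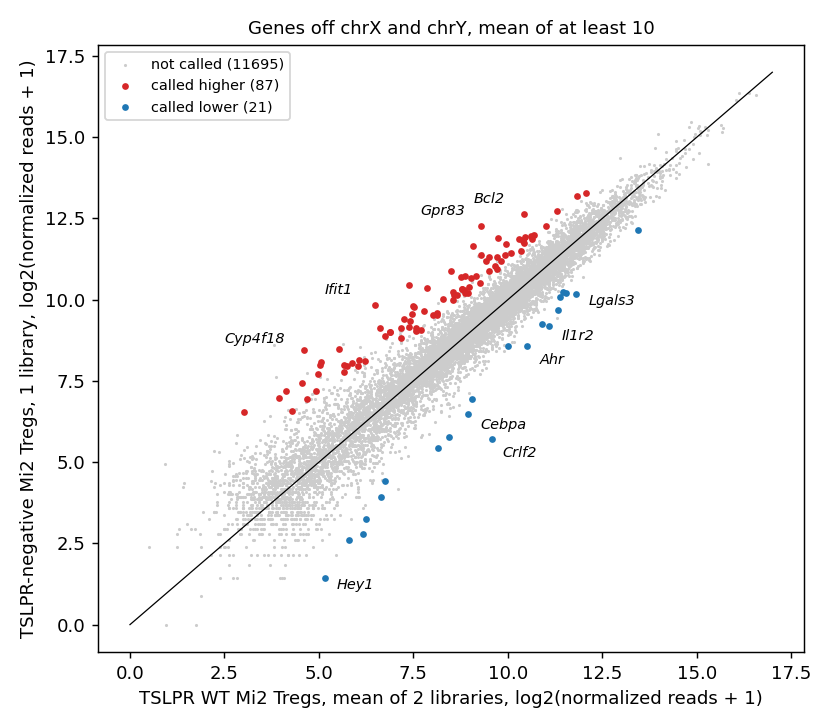
Each of the 11803 genes by its mean log2(normalized reads + 1) in the 2 TSLPR WT libraries (horizontal) and its value in the 1 TSLPR-negative library (vertical), with the line of equal values. Red points are the 87 genes called higher and blue points the 21 called lower. Crlf2 lies farthest below the line among the blue points, and Cyp4f18 farthest above it among the red points.

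The largest called increase was in Cyp4f18. This cytochrome P450, which inactivates leukotriene B4, was at 25.6 and 20.9 normalized reads in TSLPR WT, 349 in TSLPR-negative and 93.5 and 48.9 in Ctl (log2 difference 3.86, SE 0.512, limma adjusted p = 0.00379). Enah, an actin regulator of the Ena/VASP family, was at 15.0 and 17.9 in TSLPR WT, 146 in TSLPR-negative and 39.1 and 45.7 in Ctl (3.08, SE 0.534, adjusted p = 0.0170). Ltf, the iron-binding protein lactoferrin of neutrophil granules, was at 30.0 and 34.8 in TSLPR WT, 268 in TSLPR-negative and 8.28 and 11.2 in Ctl (3.02, adjusted p = 0.0256). In these 3 genes the TSLPR-negative library was the highest of all 5, above both Ctl libraries as well. Trib3, a stress-induced pseudokinase, had the same order, with 30.9 and 65.7 in TSLPR WT, 358 in TSLPR-negative and 137 and 73.0 in Ctl.

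Gpr83 and Ly6c1 showed another order. Gpr83, a receptor known for its enrichment in Tregs, was at 479 and 828 normalized reads in TSLPR WT, 4934 in TSLPR-negative and 4331 and 3799 in Ctl (log2 difference 2.97, SE 0.305, limma adjusted p = 2.9e-04). Ly6c1, a surface antigen of resting T cells, was at 108 and 256 in TSLPR WT, 1411 in TSLPR-negative and 1347 and 1120 in Ctl (3.08, SE 0.402, adjusted p = 0.00365). For both genes the TSLPR WT libraries were the low ones, and the TSLPR-negative value was slightly above both Ctl values. Art4, an ADP-ribosyltransferase family member, was at 30.0 and 33.9 in TSLPR WT, 251 in TSLPR-negative and 272 and 191 in Ctl. Tmie, a small membrane protein known from hair cells, was at 31.8 and 15.9 against 171, with 136 and 228 in Ctl. For Itga5, the alpha chain of the fibronectin receptor, the values were 22.1 and 41.8 against 208, with 94.7 and 257 in Ctl. In these 3 genes the TSLPR-negative value lay between the Ctl values. Pydc3, a pyrin domain gene, was at 203 and 268 against 1312, with 2406 and 2023 in Ctl (2.49, adjusted p = 9.3e-04). Ly6c1 has a near-identical neighbour, Ly6c2, so its reads may be split between them.

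Further increases were in Slfn1, Pik3ip1 and Pdcd4, linked to T cell quiescence or restraint, and in the surface genes P2rx7 and Dpp4. Slfn1, a Schlafen gene linked to T cell quiescence, was at 677 and 1063 normalized reads in TSLPR WT, 3843 in TSLPR-negative and 6951 and 4649 in Ctl. Pik3ip1, an inhibitor of PI3 kinase, was at 988 and 952 against 2656, with 2400 and 1915 in Ctl. Pdcd4, an inhibitor of translation, was at 4071 and 4601 against 10001, with 10396 and 7510 in Ctl. All 3 were called (limma adjusted p = 0.00597, 0.0193 and 0.0486), and in each the TSLPR-negative value lay well above both TSLPR WT values. P2rx7, the ATP-gated channel that makes T cells sensitive to extracellular nucleotides, was at 271 and 681 against 1650, with 2738 and 3092 in Ctl. Dpp4, the surface peptidase CD26, was at 639 and 807 against 1905, with 2602 and 2201 in Ctl. For both, the TSLPR-negative library lay between the TSLPR WT and the Ctl libraries. These genes were chosen after their values were seen.

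The largest decreases after Crlf2 were mostly in genes of low level. Hey1, a Notch target and transcriptional repressor, was at 36.2 and 33.9 normalized reads in TSLPR WT and 1.69 in TSLPR-negative, with 18.9 and 14.4 in Ctl (log2 difference -3.74, limma adjusted p = 0.0207). The low value rests on 2 reads. The ratio of reads relative to depth, with the TSLPR WT pair pooled, was 0.0481 with a 95% exact counting interval of 0.00572 to 0.180. Apold1, an early response gene of endothelium, was at 54.7 and 54.8 in TSLPR WT and 5.06 in TSLPR-negative, with 16.6 and 8.02 in Ctl. Boc, a coreceptor of Hedgehog ligands, was at 108 and 46.8 against 5.91, with 16.6 and 14.4 in Ctl. Rassf6, a gene of the RASSF tumour suppressor family, was at 90.9 and 62.7 against 8.44, with 14.2 and 10.4 in Ctl. In Hey1, Apold1, Boc and Rassf6 the TSLPR-negative library was the lowest of the 5. Apold1, Boc and Rassf6 also rest on 10 reads or fewer in the TSLPR-negative library. The call of Boc ended without TSLPR WT replicate 1 (log2 difference -2.79, adjusted p = 0.0678), as did that of Rassf6 (-2.75, adjusted p = 0.0678).

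Decreases with more reads included Ank3, Npnt and Cebpa. Ank3, the membrane adaptor ankyrin G, was at 295 and 275 normalized reads in TSLPR WT and 42.2 in TSLPR-negative, with 18.9 and 15.2 in Ctl. Npnt, the matrix protein nephronectin, was at 364 and 329 against 54.0, with 36.7 and 25.7 in Ctl. Cebpa, a transcription factor of myeloid and fat cells, was at 461 and 520 against 87.8, with 88.8 and 108 in Ctl (log2 difference -2.47, SE 0.363, limma adjusted p = 0.00661). For these 3 genes the TSLPR WT pair stood above the other 3 libraries; the TSLPR-negative value was above both Ctl values for Ank3 and Npnt and just below them for Cebpa. Ky, a protease known from muscle, was at 723 and 388 against 123, with 107 and 106 in Ctl. Ahr, the aryl hydrocarbon receptor, which senses ligands from diet and environment, was at 1416 and 1496 against 381, with 715 and 393 in Ctl (-1.93, SE 0.333, adjusted p = 0.0170). Il1r2, the decoy receptor that takes up interleukin 1, was at 2595 and 1827 against 583, with 635 and 589 in Ctl (-1.90, SE 0.283, adjusted p = 0.00722). In Ahr and Il1r2 the TSLPR-negative value was the lowest of the 5, just under the lower Ctl value.

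The remaining decreases included genes of vesicle traffic and surface glycans. Lrba, which keeps CTLA-4 from being degraded in lysosomes, was at 10818 and 11382 normalized reads in TSLPR WT, 4557 in TSLPR-negative and 3922 and 3498 in Ctl. Gcnt1, an enzyme that builds branched O-glycans of selectin ligands, was at 2959 and 2256 against 821, with 1082 and 828 in Ctl. Lgmn, the lysosomal protease legumain, was at 2779 and 2558 against 1081, with 647 and 480 in Ctl. Each was called (limma adjusted p = 0.0276, 0.0149 and 0.0397), with the TSLPR-negative value under both TSLPR WT values. Slc7a10, a transporter of small neutral amino acids, was at 127 and 88.6 against 20.3, with 54.4 and 102 in Ctl. Slc24a3, an exchanger of sodium for calcium and potassium, was at 143 and 68.7 against 14.4, with 22.5 and 41.7 in Ctl, and its call ended without TSLPR WT replicate 1 (-2.18, adjusted p = 0.0989). Both transporters were lowest in the TSLPR-negative library. Stx11 (a syntaxin of granule release), Adap1 and Tmem2 were also called lower. These genes of vesicles and glycans were chosen after their values were seen.

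**Figure D2:**
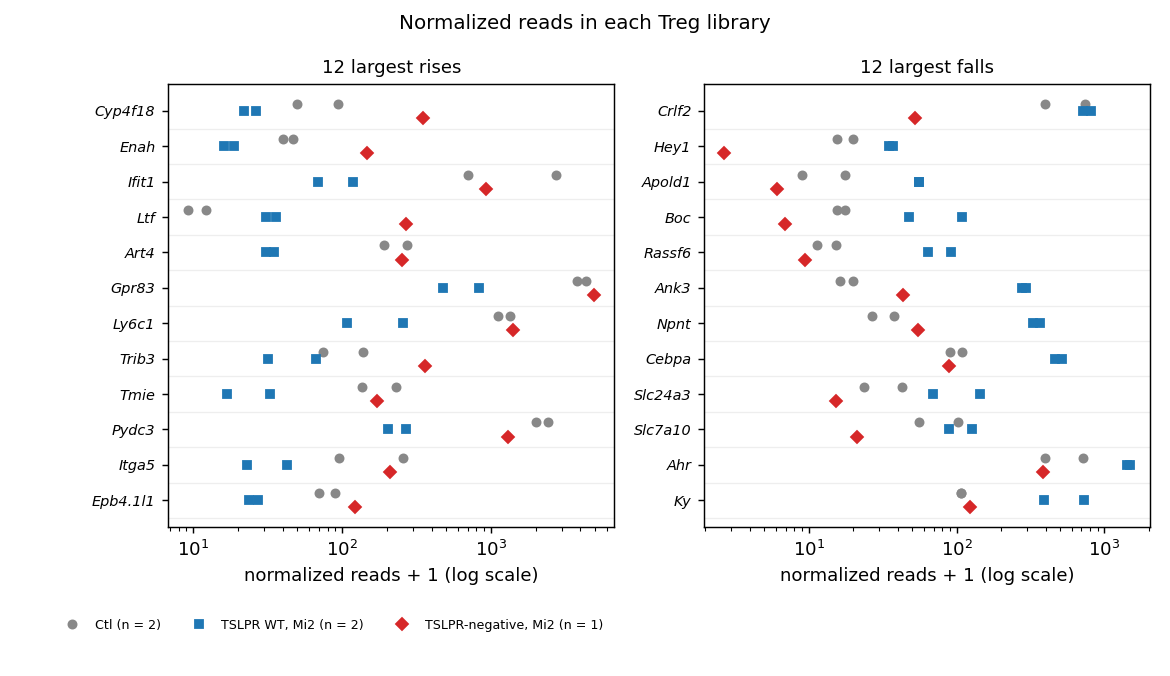
Normalized reads + 1 in each of the 5 Treg libraries on a log axis, for the 12 largest called increases (left) and decreases (right) by distance from the nearer TSLPR WT library, with symbols such as I830012O16Rik that are no gene name skipped. The red TSLPR-negative point lies outside the blue TSLPR WT pair in all 24 genes, as the choice of genes requires; it lies above both grey Ctl points in Cyp4f18, Enah, Ltf, Gpr83, Ly6c1, Trib3 and Epb4.1l1 and below both in Crlf2, Hey1, Apold1, Boc, Rassf6, Cebpa, Slc24a3, Slc7a10 and Ahr.

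Of the 19 tested genes of the TSLP receptor and JAK-STAT5 list, Crlf2 alone was called, and no other receptor, kinase or STAT gene passed the test. Il7r, the partner chain, was at 16939 and 5188 normalized reads in TSLPR WT, 13555 in TSLPR-negative and 13149 and 4762 in Ctl. The TSLPR WT libraries differed so much from each other that the TSLPR-negative value fell between them. Il2ra, the interleukin 2 receptor alpha chain, was at 40340 and 30193 against 34192, also between the 2. Its partner Il2rb, the beta chain, was at 23098 and 22035 against 30229 (log2 difference 0.42, limma adjusted p = 0.610). Jak1 was at 12061 and 12821 against 17661 (0.51, adjusted p = 0.474), and Jak2 differed by 0.34 (adjusted p = 0.683). Among the STAT genes, Stat5a was at 1729 and 2287 against 2462 and Stat5b at 3841 and 3970 against 5553 (0.51, adjusted p = 0.434). Both lay above the TSLPR WT pair without passing the test. Over the list, 10 genes were above and 4 below both TSLPR WT values, and the median difference was 0.31, against 38.9% above and 34.2% below and a median of 0.03 over all tested genes. Of the 4 below, Crlf2 was the one with an unadjusted p under 0.05, and 3 genes above had one.

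Genes of the STAT5 and cytokine target list did not fall together with Crlf2. The list mixes genes that STAT5 induces with Bcl6, which it represses. Of 19 tested genes of the STAT5 and cytokine target list, 1 was called higher and 0 lower, 13 lay above and 4 below both TSLPR WT values, and the median difference was 0.33. Of all tested genes 0.737% were called higher, 38.9% lay above and 34.2% below both TSLPR WT values. Cish, the classical STAT5-induced inhibitor of cytokine receptors, was at 2907 and 3247 normalized reads in TSLPR WT, 4390 in TSLPR-negative and 3961 and 4733 in Ctl (0.51, limma adjusted p = 0.440). Socs1 was at 365 and 443 against 994, with 967 and 1597 in Ctl (1.30, adjusted p = 0.0742). Socs2, another inhibitor of cytokine signals, was at 718 and 617 against 826, with 1400 and 1085 in Ctl. In these 3 feedback inhibitors the TSLPR-negative value was above both TSLPR WT values, and none was called. Pim1, a survival kinase, was at 5925 and 5717 against 4011 (-0.54, adjusted p = 0.406). Bcl6, the follicular helper transcription factor that STAT5 represses, was at 57.3 and 135 against 336, with 554 and 752 in Ctl (1.92, adjusted p = 0.0573). The counts without TSLPR WT replicate 2 were 5 higher and 0 lower.

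The called gene of that list was Bcl2, the main anti-apoptotic gene of resting lymphocytes. It was at 995 and 1923 normalized reads in TSLPR WT, 6367 in TSLPR-negative and 10038 and 6422 in Ctl (log2 difference 2.20, SE 0.354, limma adjusted p = 0.0129). The TSLPR-negative value was just under the lower Ctl value and far above the TSLPR WT pair. Its pro-apoptotic partners moved both ways. Bcl2l11, which encodes BIM, rose from 897 and 900 to 2361, with 2325 and 1770 in Ctl (1.39, SE 0.263, adjusted p = 0.0270). Pmaip1, which encodes NOXA, fell from 1067 and 988 to 380, with 266 and 201 in Ctl (-1.43, SE 0.306, adjusted p = 0.0423), and its call ended without TSLPR WT replicate 1 (-1.38, adjusted p = 0.0526). Among 22 tested genes of the BCL2 family and apoptosis list, 2 were called higher and 1 lower. The shares over all tested genes were 0.737% and 0.178%. The list's median difference was -0.14. Mcl1, another survival gene that STAT5 targets, was at 9221 and 8645 against 11253 (0.33, adjusted p = 0.701). The death receptor gene Fas was at 336 and 338 against 801, with 1020 and 876 in Ctl (1.25, adjusted p = 0.0524).

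**Figure D3:**
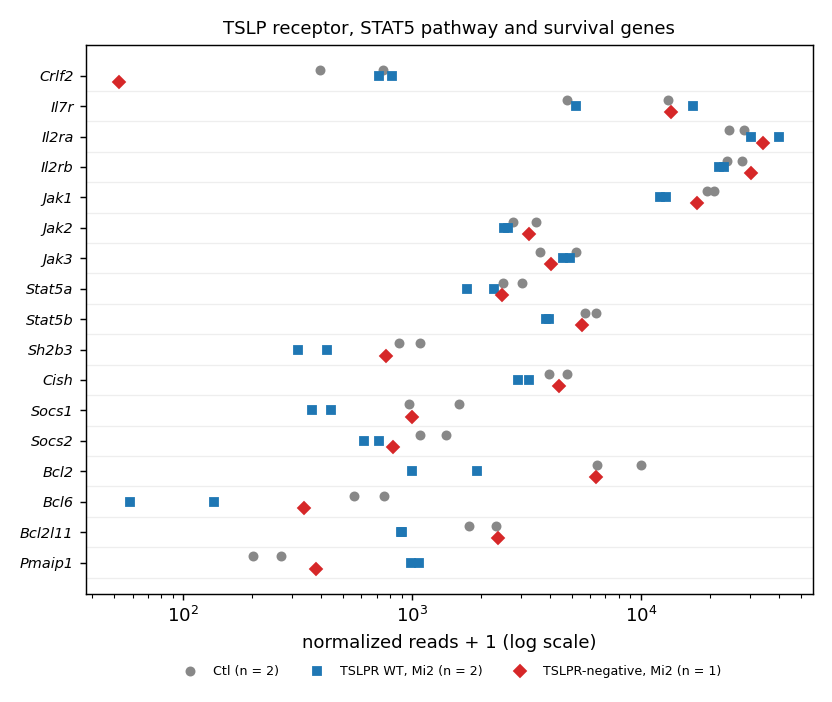
Normalized reads + 1 in each of the 5 Treg libraries, on a log axis, for genes of the TSLP receptor, the JAK-STAT5 pathway, its targets and apoptosis. Crlf2 is the 1 receptor gene where the TSLPR-negative point stands apart from all others; for Bcl2 and Bcl2l11 it lies with the Ctl points and away from the TSLPR WT pair.

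Promoter windows of RefSeq were searched for the site that STAT5 dimers bind, TTCNNNGAA, which is its own reverse complement. For 9375 of the 11803 tested genes the table held at least 1 window. The motif was in 8.30% of all 32851 windows, 7.02% of those of tested genes, in 4 of 93 windows of genes called higher (4.30%) and in 2 of 20 of genes called lower (10%). It was in 5 of 20 windows of the STAT5 target list (25%), 7 of 29 of the interferon list (24.1%) and 4 of 29 of the effector Treg list (13.8%). The site of interferon-activated factors was searched on both strands as GAAA, any 2 bases and GAAA. It was in 3.44% of all windows and 3.13% of those of tested genes. Genes called higher had it in 9 of 93 windows (9.68%), and genes called lower in 0 of 20. Some of these 9 windows belong to the same gene, Gm14446. In the interferon list it was in 15 of 29 windows (51.7%). A match is a description of these letters and not a measured site. The 2 motifs overlapped in 24 of all windows.

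The windows below are those of the 2 largest increases with a gene name and of the largest decrease after Crlf2 that had an entry, with 3 that were added after their values were seen because they carry a motif and belong to genes described here. They are on GRCm38.p6, written 5′ to 3′ on the gene's strand, with motif letters in capitals; the interferon motif there reads TTTC, 2 bases and TTTC, its form on the opposite strand. Cyp4f18 lies at chr8:72009577-72009876 (minus strand) and Enah at chr1:182019931-182020230 (minus strand), both without a motif. Apold1, at chr6:134981751-134982050 (plus strand), has the STAT5 motif 83 bases before the start, and Il1r2, at chr1:40085843-40086142 (plus strand), has it 111 bases before. Cish, at chr9:107296409-107296708 (plus strand), has it at positions 1 and 12 after the start. Ifit1, at chr19:34640639-34640938 (plus strand), has the interferon motif 104 and 85 bases before the start.
Cyp4f18: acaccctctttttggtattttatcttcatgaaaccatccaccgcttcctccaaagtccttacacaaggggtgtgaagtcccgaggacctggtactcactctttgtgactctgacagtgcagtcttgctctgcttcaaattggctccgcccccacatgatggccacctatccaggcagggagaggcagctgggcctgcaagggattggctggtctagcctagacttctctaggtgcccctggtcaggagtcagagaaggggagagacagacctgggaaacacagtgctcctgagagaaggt
Enah: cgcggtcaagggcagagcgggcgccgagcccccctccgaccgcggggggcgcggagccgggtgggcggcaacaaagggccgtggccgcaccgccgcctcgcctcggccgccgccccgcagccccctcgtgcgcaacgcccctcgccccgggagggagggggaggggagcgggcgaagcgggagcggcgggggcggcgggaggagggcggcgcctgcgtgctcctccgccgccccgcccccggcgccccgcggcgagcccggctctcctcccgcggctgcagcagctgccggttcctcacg
Apold1: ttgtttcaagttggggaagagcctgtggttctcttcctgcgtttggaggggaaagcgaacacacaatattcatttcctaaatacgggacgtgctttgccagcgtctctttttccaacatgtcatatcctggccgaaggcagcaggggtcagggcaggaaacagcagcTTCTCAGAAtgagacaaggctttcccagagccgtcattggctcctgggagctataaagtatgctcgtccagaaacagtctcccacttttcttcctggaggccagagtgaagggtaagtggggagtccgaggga
Il1r2: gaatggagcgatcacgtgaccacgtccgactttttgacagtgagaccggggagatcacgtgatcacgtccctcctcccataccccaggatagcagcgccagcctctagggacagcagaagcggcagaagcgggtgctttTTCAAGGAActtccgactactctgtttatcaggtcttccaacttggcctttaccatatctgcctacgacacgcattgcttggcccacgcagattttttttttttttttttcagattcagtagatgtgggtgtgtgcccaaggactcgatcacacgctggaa
Cish: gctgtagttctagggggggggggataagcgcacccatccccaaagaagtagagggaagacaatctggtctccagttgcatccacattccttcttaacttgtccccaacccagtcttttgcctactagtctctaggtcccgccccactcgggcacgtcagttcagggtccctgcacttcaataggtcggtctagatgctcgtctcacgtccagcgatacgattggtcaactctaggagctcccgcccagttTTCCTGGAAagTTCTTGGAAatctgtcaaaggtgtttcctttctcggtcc
Ifit1: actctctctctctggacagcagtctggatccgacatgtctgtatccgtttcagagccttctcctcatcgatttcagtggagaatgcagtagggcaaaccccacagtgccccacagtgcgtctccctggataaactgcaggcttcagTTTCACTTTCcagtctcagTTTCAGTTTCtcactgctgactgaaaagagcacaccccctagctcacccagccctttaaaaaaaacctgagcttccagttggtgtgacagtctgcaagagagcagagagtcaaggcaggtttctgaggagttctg

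Interferon-induced genes had the highest median of the 24 gene lists. Of 36 tested genes 3 were called higher and 0 lower, 31 lay above and 3 below both TSLPR WT values, and 13 were at least 2-fold above. Over all tested genes, 0.737% were called higher, 38.9% lay above and 34.2% below both TSLPR WT values, and 2.74% were at least 2-fold above. The median difference of the list was 1.05, and 26 genes had an unadjusted p under 0.05 with a higher value. That held for 837 of all 11803 tested genes. Ifit1, an antiviral protein that binds foreign RNA, was at 67.9 and 117 normalized reads in TSLPR WT, 919 in TSLPR-negative and 2748 and 702 in Ctl (3.35, SE 0.564, limma adjusted p = 0.0149). Usp18, which removes the ubiquitin-like ISG15 and damps interferon receptor signals, was at 71.4 and 131 against 554, with 1304 and 724 in Ctl (2.50, SE 0.414, adjusted p = 0.0139). Irf7, the factor that amplifies type I interferon, was at 369 and 434 against 1138, with 2116 and 1259 in Ctl (1.51, SE 0.317, adjusted p = 0.0397). The TSLPR WT libraries were the lowest in each of these 3 genes. The call of Irf7 ended with DESeq2 size factors. Ifit1 kept no call with DESeq2 (adjusted p = 0.135).

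Ifit3 had like values without passing the test. It was at 26.5 and 88.6 against 394 (2.99, limma adjusted p = 0.0623), above both TSLPR WT values. I830012O16Rik, a gene of the Ifit cluster outside the list and the next largest increase after Cyp4f18, was called higher, at 4.41 and 10.95 against 92.9, with 289 and 72.2 in Ctl; it was picked after its values were seen. The list was not uniform. Oas1a, an activator of RNase L, was at 168 and 98.5 against 78.5, below both TSLPR WT values, and Gbp7, a guanylate-binding protein, at 7672 and 4266 against 5777, between them. The number of called genes ranged from 7 without TSLPR WT replicate 1 to 20 without replicate 2, and it was 8 without Ctl replicate 1 and 11 without Ctl replicate 2, all of them higher. Genes of this family share sequence with close copies, so the split of reads between Ifit, Oas and Gbp members is uncertain. Class I antigen presentation, which interferon also raises, had 0 of 22 genes called (2 at an unadjusted p under 0.05, 0 by edgeR and 0 by DESeq2), with a median of 0.19.

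**Figure D4:**
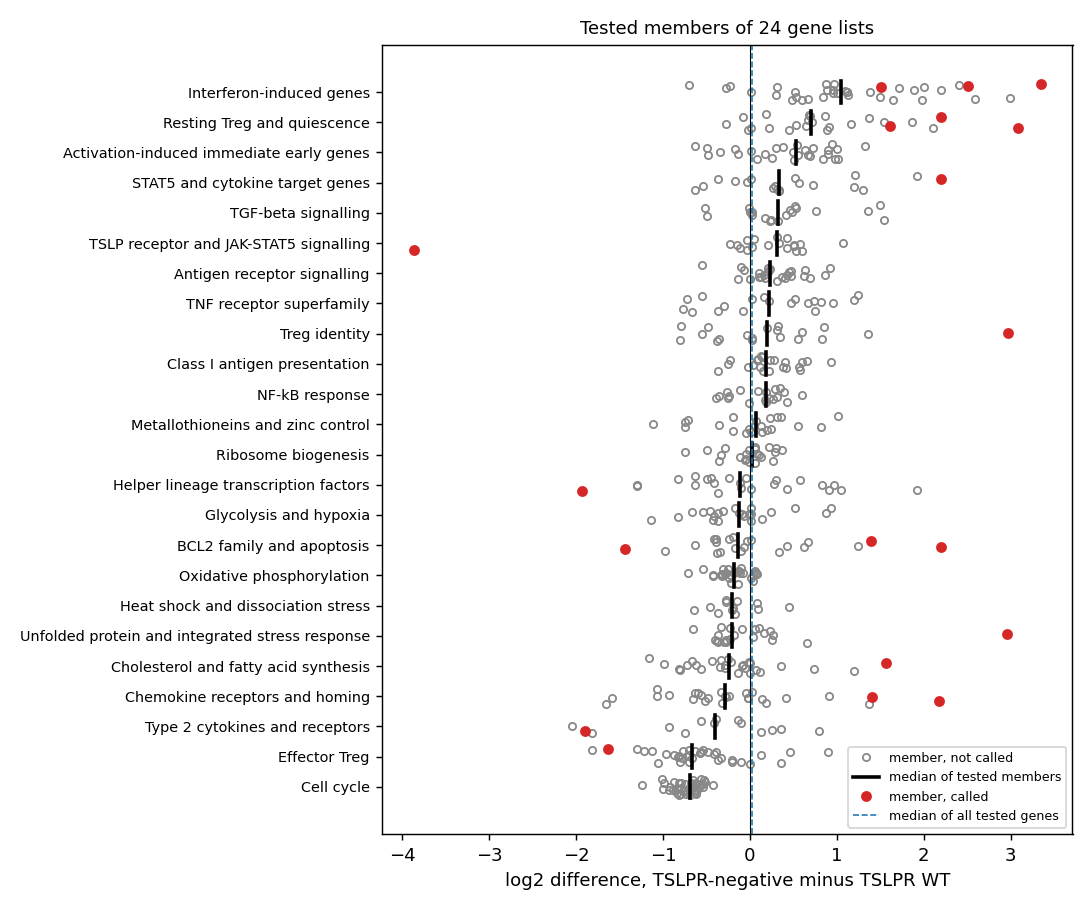
Log2 difference of TSLPR-negative minus TSLPR WT Tregs for each tested member of 24 gene lists, 1 row per list in the order of the medians; red points are called members, black bars medians, and the dashed line the median of all tested genes (0.03). Interferon-induced genes stand at the top (1.05) and cell cycle genes at the bottom (-0.69).

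Genes of resting Tregs were mostly higher, and genes of effector Tregs mostly lower, than in TSLPR WT. Of 24 resting and quiescence genes 3 were called higher and 0 lower, against 0.737% and 0.178% of all tested genes. Above both TSLPR WT values lay 19, against 38.9% of all tested genes, and the median difference was 0.70. The called genes were Bcl2, Ly6c1 and Actn1, an actin crosslinker at 578 and 1199 normalized reads in TSLPR WT, 2543 in TSLPR-negative and 3522 and 4243 in Ctl. Actn1 kept no call without TSLPR WT replicate 1 (1.08, limma adjusted p = 0.106). Bach2, a repressor of effector differentiation, was at 356 and 1213 against 2399, with 3777 and 3040 in Ctl (1.87, adjusted p = 0.0864). Tcf7, which encodes TCF1, was at 1722 and 4375 against 7106, with 9233 and 10650 in Ctl. Ccr7, the receptor that guides T cells into lymph nodes, was at 2872 and 4034 against 6413 (0.91, adjusted p = 0.152). Tcf7 and Ccr7 lay above both TSLPR WT values, and neither was called. Without TSLPR WT replicate 2 the list had 9 called genes.

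Of 35 tested effector Treg genes 1 was called lower and 0 higher, against 0.178% and 0.737% of all tested genes. Below both TSLPR WT values lay 26 and above them 3, against 34.2% and 38.9% of all tested genes. The median difference was -0.67. The called gene was Lgals3, which encodes galectin 3, at 3851 and 3304 normalized reads in TSLPR WT, 1148 in TSLPR-negative and 363 and 188 in Ctl (-1.63, SE 0.340, limma adjusted p = 0.0391). Icos, a costimulatory receptor of effector Tregs, was at 52580 and 31079 against 18592, with 12404 and 8399 in Ctl (-1.12, adjusted p = 0.155). Havcr2, the inhibitory receptor TIM-3, was at 2246 and 1734 against 847, with 420 and 259 in Ctl (-1.22, adjusted p = 0.0975). Prdm1, which encodes the effector factor BLIMP-1, was at 6492 and 4629 against 2642, with 1390 and 1035 in Ctl. In these 4 genes the TSLPR-negative value lay between the TSLPR WT and the Ctl values. The call of Lgals3 ended with DESeq2 size factors. Klrg1, a receptor of terminally differentiated cells, was at 4314 and 3738 against 3023 (-0.41, adjusted p = 0.609). The transcription factor Gata3 and the interleukin 33 receptor Il1rl1 did not separate from TSLPR WT: Gata3 was at 2282 and 1900 against 1933, and Il1rl1 at 3420 and 1636 against 2577. By DESeq2 6 genes of the list were called lower, and without TSLPR WT replicate 2 limma called 8. The median was -0.43 without TSLPR WT replicate 1 and -0.80 without replicate 2.

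Treg identity genes other than Gpr83 were not called. Of 19 tested genes 8 lay above and 5 below both TSLPR WT values, against 38.9% and 34.2% of all tested genes. The median difference was 0.19, and it was -0.04 without TSLPR WT replicate 2. Lrrc32, which encodes the TGF-beta docking receptor GARP, was at 1678 and 3012 normalized reads in TSLPR WT, 5751 in TSLPR-negative and 7229 and 6028 in Ctl (1.35, limma adjusted p = 0.0573). Ikzf2, which encodes Helios, was at 17405 and 12284 against 8466 (-0.79, adjusted p = 0.292), and Ctla4, the inhibitory receptor of Tregs, at 40011 and 23058 against 20804, with 13178 and 9247 in Ctl. Lrrc32 lay above the TSLPR WT pair, and Ikzf2 and Ctla4 below it. Tnfrsf18, which encodes GITR, was at 6298 and 4887 against 5658, between the 2.

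All 40 cell cycle genes lay below both TSLPR WT values, against 34.2% of all tested genes, and none was called. The differences ran from -1.24 to -0.42 with a median of -0.69. An unadjusted p under 0.05 was found for 26 genes, and for 551 lower genes among all 11803 tested. By edgeR and DESeq2 0 were called in the list. Mki67, the proliferation marker, was at 27384 and 26727 normalized reads in TSLPR WT, 17547 in TSLPR-negative and 6258 and 3122 in Ctl. Rrm2, the ribonucleotide reductase subunit of S phase, was at 6531 and 6580 against 3301, with 1380 and 773 in Ctl (-0.99, limma adjusted p = 0.164). Birc5, the mitotic gene survivin, was at 2603 and 2894 against 1361, with 524 and 277 in Ctl (-1.01, adjusted p = 0.188). The TSLPR-negative library stood between the TSLPR WT and the Ctl libraries in all 3. In bulk libraries such as these, fewer cells of a kind and less RNA per cell cannot be told apart. Leaving out either Ctl library gave 2 calls, both lower.

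The same lists are set beside Ctl by the median over genes in each library, taken relative to the mean of the TSLPR WT pair. The 2 comparisons share the TSLPR WT libraries, so their values are given without a test of their likeness. For cell cycle the median was -2.06 and -2.84 in Ctl and -0.69 in TSLPR-negative. Effector Treg genes had -1.37 and -1.61 in Ctl and -0.67 in TSLPR-negative. Resting genes had 1.11 and 1.07 in Ctl and 0.70 in TSLPR-negative, and interferon-induced genes 2.08 and 1.31 in Ctl and 1.05 in TSLPR-negative.

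**Figure D5:**
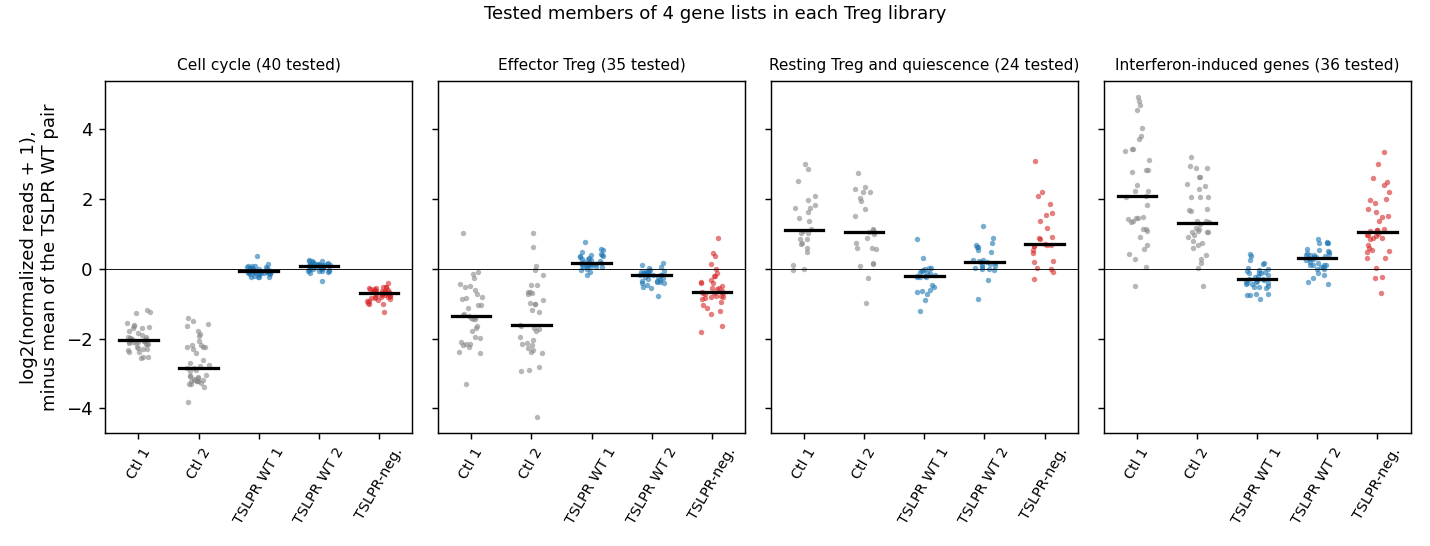
Each tested member of 4 gene lists in each of the 5 Treg libraries, as log2(normalized reads + 1) minus the mean of the 2 TSLPR WT libraries; bars are medians over genes. In all 4 lists the median of the TSLPR-negative library lies between 0 and the Ctl medians (-0.69, -0.67, 0.70 and 1.05), and both TSLPR WT medians lie near 0 because they set that level.

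Chemokine receptors were divided. Of 27 tested homing genes 2 were called higher and 0 lower, against 0.737% and 0.178% of all tested genes. Above both TSLPR WT values lay 5 and below them 12, against 38.9% and 34.2% of all tested genes. The median difference was -0.28. Ccr9, which guides cells to the gut, was at 38.8 and 85.6 normalized reads in TSLPR WT, 263 in TSLPR-negative and 366 and 377 in Ctl (2.17, SE 0.444, limma adjusted p = 0.0372). Cxcr5, which guides cells to B cell follicles, was at 251 and 313 against 742, with 1235 and 1706 in Ctl (1.40, SE 0.302, adjusted p = 0.0431), and its call ended without TSLPR WT replicate 1 (1.24, adjusted p = 0.0564). Both were higher in TSLPR-negative than in either TSLPR WT library. Ccr4, a receptor of skin-homing T cells, was at 5870 and 3553 against 2398, with 2292 and 2114 in Ctl (-0.93, adjusted p = 0.170). Ccr10, a receptor for a keratinocyte chemokine, was at 569 and 734 against 306, with 69.8 and 137 in Ctl (-1.07, adjusted p = 0.275). Fut7, which makes the selectin ligand used in skin homing, was at 816 and 623 against 339, with 155 and 195 in Ctl (-1.07, adjusted p = 0.162). None of these 3 was called, and each lay below both TSLPR WT values. Without TSLPR WT replicate 1 the list had 1 gene called higher and 0 lower with a median of 0.0028, and without replicate 2 it had 4 higher and 3 lower with a median of -0.45. Ccr10 and Fut7 were picked after their values were seen.

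Type 2 cytokines were nearly absent from all 5 libraries: Il4, Il5 and Il13 had a mean under 10, with 0 reads for Il4 and Il5 and 1 read for Il13 in the TSLPR-negative library. Of the 14 other genes of that list Il1r2 was called lower, and the median difference was -0.40. With TSLPR WT replicate 2 left out, 5 genes were called lower with a median of -0.78, and without replicate 1 the median was -0.19. Areg, the repair factor amphiregulin, was at 86.4 and 48.8 normalized reads in TSLPR WT, 17.7 in TSLPR-negative and 54.4 and 40.9 in Ctl (-1.82, limma adjusted p = 0.154). Il4ra, the receptor for interleukins 4 and 13, was at 3055 and 4055 against 6123, with 7183 and 8402 in Ctl (0.80, adjusted p = 0.192). The TSLPR-negative value was outside the TSLPR WT pair for both, below it for Areg and above it for Il4ra. Among 24 helper lineage transcription factors Ahr was called lower and 0 were called higher; without TSLPR WT replicate 2, 4 were called lower and 2 higher, and without either Ctl library 3 lower and 2 higher. Runx2, a factor linked to tissue T cells, was at 1063 and 868 against 390 (-1.30, adjusted p = 0.0635), Rora at 4501 and 3741 against 1669 (-1.30, adjusted p = 0.103) and Stat4, which carries interleukin 12 signals, at 869 and 891 against 1817 (1.05, adjusted p = 0.0685). None of the 3 was called.

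Lists of antigen receptor signalling, immediate early, NF-kB, TNF receptor and TGF-beta genes held 0 genes called by limma. Over all tested genes 38.9% lay above both TSLPR WT values, and 837 of 11803 were higher at an unadjusted p under 0.05. Antigen receptor genes had a median of 0.23, with 19 of 25 above both TSLPR WT values. At an unadjusted p under 0.05 there were 5 (0 called by edgeR and 0 by DESeq2). Immediate early genes, which follow recent stimulation, had a median of 0.53, with 18 of 28 above both and 10 at an unadjusted p under 0.05 (0 called by edgeR and 0 by DESeq2). Rgs1, a regulator of G protein signals in that list, was at 2246 and 2033 normalized reads in TSLPR WT, 4326 in TSLPR-negative and 6500 and 4132 in Ctl (1.02, limma adjusted p = 0.118). Nr4a3, a nuclear receptor induced by antigen, was at 101 and 184 against 343, with 443 and 626 in Ctl. Both lay above the TSLPR WT pair. The TNF receptor list had 6 genes higher at an unadjusted p under 0.05 and 1 called by edgeR and by DESeq2. The NF-kB list had 0 genes at an unadjusted p under 0.05 and 0 called by edgeR or DESeq2, and the TGF-beta list had 2, of which DESeq2 called 1. Medians were 0.18 for NF-kB genes, 0.22 for TNF receptors and 0.32 for TGF-beta genes.

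Few metabolic genes were called. Abca1, which exports cholesterol, was called higher in the cholesterol and fatty acid list, at 1399 and 1130 normalized reads in TSLPR WT, 3719 in TSLPR-negative and 2240 and 1574 in Ctl (1.56, SE 0.279, limma adjusted p = 0.0200). Mylip, which marks the LDL receptor for degradation and like Abca1 is a target of the oxysterol receptor LXR, was at 733 and 705 against 1647, with 1696 and 1316 in Ctl (1.20, adjusted p = 0.0513). Abcg1, another exporter and LXR target, was at 2589 and 2865 against 4544 (0.74, adjusted p = 0.221). In Abca1 the TSLPR-negative library was the highest of the 5. The list's median was -0.24. Without TSLPR WT replicate 1 the list had 1 gene called higher and 4 lower with a median of -0.45, and without replicate 2 it had 2 higher and 0 lower with a median of 0.09. In the stress response list Trib3 was the 1 call, and Atf4, the factor known to induce it, was at 2524 and 3002 against 2865. Oxidative phosphorylation had 0 of 29 genes called and 0 at an unadjusted p under 0.05 (0 called by edgeR and 0 by DESeq2). Below both TSLPR WT values lay 19 and above them 0, against 34.2% and 38.9% of all tested genes. The list's median was -0.18. That median was -0.32 without TSLPR WT replicate 1 and -0.04 without replicate 2. Glycolysis (median -0.12), ribosome biogenesis (0.02), heat shock (-0.20) and zinc control genes (0.06) also had 0 calls by limma, edgeR or DESeq2, with 3, 0, 1 and 3 genes at an unadjusted p under 0.05.

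Markers of other cells that a sort could carry were summed by list. B cell markers summed to 5916 and 8194 normalized reads in TSLPR WT, 5499 in TSLPR-negative and 24039 and 13776 in Ctl, with 0 of 17 called. The plasma cell list summed to 19139 and 14819 against 11111, mostly from Prdm1, Irf4 and Xbp1, which Tregs also express, and its defining gene Igj was at 6.17 and 5.97 against 1.69. Cytotoxic and CD8 markers summed to 3643 and 3533 against 3611, with 3003 and 2861 in Ctl. Within that list Cd8a was at 102 and 254 against 430, with 553 and 539 in Ctl (1.41, limma adjusted p = 0.159), Cd8b1 at 409 and 472 against 692, and Gzmb at 2624 and 2144 against 1591. The like sum thus holds genes above and below the TSLPR WT pair. Myeloid markers summed to 2374 and 2463 against 2034 and dendritic cell markers to 1083 and 1731 against 1514, and mast cell markers to 72.3 and 126 against 168. None of the genes of these lists was called by limma or edgeR, and DESeq2 called 1, of the plasma cell list. Neutrophil S100a8 and S100a9 had a mean under 10, beside the higher value of Ltf.

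Of the conventional helper T cell list, 4 of 13 genes were tested and 2 were called higher, Cxcr5 and Cd226, an adhesion receptor at 220 and 347 normalized reads in TSLPR WT, 768 in TSLPR-negative and 1208 and 1046 in Ctl. Il23r, a receptor chain for interleukin 23, went the other way, at 285 and 91.6 against 35.5, with 34.3 and 22.5 in Ctl (-2.16). It was not called by limma, while DESeq2 called it lower. Il17a, Il22 and Il3 had 0 reads in every library, and the list summed to 759 and 760 against 1554. Without TSLPR WT replicate 1 the list had 0 calls by limma, with a median of 0.57 in place of 1.17. Cd226 then had an adjusted p of 0.106, and its call also ended with TMM (0.0532) and with DESeq2 size factors (0.0707). Stromal and endothelial markers summed to 2224 and 2995 against 4296, mostly from Pecam1, which T cells also express. Keratinocyte markers summed to 525 and 656 against 688, mostly from Sfn, and 6 of 12 had 0 reads in all libraries. Erythroid markers summed to 392 and 171 against 651. All 5 tested genes lay above both TSLPR WT values, against 38.9% of all tested genes, with 0 called and a median of 1.46. Leaving out TSLPR WT replicate 1 gave 3 of them called higher and a median of 2.07. The globins Hba-a1 and Hba-a2 share their reads. The part of these cells in the differences above was not tested.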

How the data were processed

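The libraries were made with a NEXTflex or a stranded TruSeq kit, per the labels' protocols, without saying which served which sample. Per the file headers, the authors used HOMER to sum reads over the exons of each transcript of mm9, without a strand option, and scaled with its DESeq2 mode over 7 libraries; 5 of these are columns of the table. The submitters' processing notes also name bcl2fastq 1.8.3, STAR and mm10. The deposited values are a normalized signal: each is a whole number of reads times 1 factor per library, within 0.05 reads for 100% of values, and all 5 columns share 1 total. Reads were recovered by dividing by that factor. They carry no molecular identifiers, so intervals cover counting error alone. Despite the DESeq2 mode in the header, the shared total is not a scaling by DESeq2 size factors. Such factors from the recovered reads would multiply the TSLPR-negative values by 0.970 and those of Ctl replicate 1 by 1.02.

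Members and gene lists were chosen with earlier results of these data known. limma 3.58.1 (R 4.3.3) with an intensity trend was fitted on log2(value + 1) to the 3 groups of 5 Treg libraries, over all 12206 symbols with a mean of at least 10; the pseudocount of 1 understates changes of low genes. Tests were two-sided, with Benjamini-Hochberg adjustment over all 12206 and a call at an adjusted p under 0.05; 7 called genes on X and Y are not reported. Alternatives were edgeR 4.0.16 and DESeq2 1.42.0 on recovered reads, other scalings, pseudocounts, filters and transcripts, and each TSLPR WT or Ctl library left out. The rule for named genes took the 12 called genes (mean of 20 or more; provisional symbols such as those ending in Rik skipped) farthest from the nearer TSLPR WT library in each direction, then no more than 4 members by smallest p from each of 24 lists, the 3 most abundant genes of each of 10 marker lists and 20 fixed genes of the receptor axis and Tregs. Promoter windows came from RefSeq.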

Additional observations from a re-analysis of the deposited data

How the results depend on the processing

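No paired analysis was possible because the TSLPR-negative library carries no replicate number. The 108 calls (87 higher, 21 lower, 17 of them list members) became 61 with DESeq2 size factors (45 higher, 11 list members), 231 with DESeq2 (144 higher, 87 lower, 31 list members), 271 with the 3 Mi2 libraries alone (163, 108 and 44), 1 with limma without trend (0 higher, 1 lower, 0 list members; 1220 genes at an unadjusted p under 0.05) and 0 with no filter (0 higher, 0 lower, 0 list members; 1673 unadjusted). edgeR called 114 and DESeq2 231. With 1 library left out, calls ran from 147 to 434, those higher from 117 to 315, those lower from 30 to 119 and list members from 24 to 71, the highest each time without TSLPR WT replicate 2. Then only the remaining pair sets the spread. The 557 genes past 2-fold (323 higher, 234 lower) became 1557 at 1.5-fold (864 and 693), 133 at 3-fold (76 and 57), 336 with a mean of at least 50 (215 and 121) and 1275 with no filter (717 and 558). With either TSLPR WT library left out they ran from 1014 to 1270, those higher from 617 to 702 and those lower from 397 to 568. Leaving X and Y out of the fit, chosen after the sex-linked genes were seen, gave 137 calls. Of 36 named calls, 35 remained with a pseudocount of 0.5, 36 with 5, 31 with TMM, 24 with DESeq2 size factors, 34 with edgeR, 34 with DESeq2 and 29 without TSLPR WT replicate 1. Limma without trend kept 1 of the 36, and no filter kept 0. None of these 36 changed direction, which is no support of its own. Of the called genes, 86 of 87 higher and all 21 lower lay at least 2-fold outside the TSLPR WT pair. The alternatives, on the same values, could hardly turn such a sign. Among named genes not called, 12 took the other sign under at least 1 alternative, among them Il7r without TSLPR WT replicate 2 (-0.32 in place of 0.53). Calls of Slc24a3 (0.0604) and Slc7a10 (0.0656) ended with edgeR, those of Ifit1 (0.135) and Hey1 (0.0660) with DESeq2, as adjusted p. With DESeq2 size factors 12 named calls ended, among the increases those of Itga5, Epb4.1l1, Irf7, Cxcr5, Ccr9, Cd226 and Actn1. Among the decreases they were those of Apold1, Slc24a3, Slc7a10, Lgals3 and Pmaip1. The cause of these changes was not tested. A value of 3 reads was worth 2.53 normalized reads in the TSLPR-negative library, which limits what can be said of Hey1, Apold1 and Boc.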

Other observations

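Among called genes outside the lists, several were higher in the TSLPR-negative library than in all 4 others. Atp1b1, the beta subunit of the sodium pump, was at 277 and 465 normalized reads in TSLPR WT, 1890 in TSLPR-negative and 1555 and 1078 in Ctl (log2 difference 2.39, SE 0.336, limma adjusted p = 0.00557). Smc6, part of a chromosome maintenance complex, was at 3535 and 3733 against 9359, with 5595 and 3934 in Ctl. Acp5, an acid phosphatase known from osteoclasts, was at 1528 and 1188 against 3637, with 2303 and 2455 in Ctl. Emilin1, a protein of elastic fibres, was at 64.4 and 65.7 against 248, with 117 and 136 in Ctl. In Smc6, Acp5 and Emilin1 the Ctl libraries lay nearer to TSLPR WT than the TSLPR-negative library did. Ly6a, the stem cell antigen Sca-1, was at 2273 and 1893 against 4948, with 3867 and 3050 in Ctl. These genes were chosen after their values were seen.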
